A study of Mus musculus with 35 samples.

Results

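The 48 genes described here encode the machinery of mitosis: spindle kinesins, cytokinesis factors, kinetochore and checkpoint proteins, mitotic kinases, cyclins, anaphase factors, condensins and other chromosome proteins, spindle assembly factors and the transcription factor Foxm1. They were taken by symbol from a list chosen by function, and all 48 were found among the 52636 genes of the count table. RNA was sequenced from CD8 T cells sorted from C57BL/6 mice: single positive cells of the thymus (CD8 SP), and naive (CD44- CD62L+) and memory (CD44+ CD62L+) cells of the spleen. In all groups the mice carried 1 copy of a transgene labelled Lcre, written +/-, and they differed in Dot1l, which encodes a histone H3 lysine methyltransferase: Dot1Lwt/wt (WT), Dot1Lfl/wt (Het) and Dot1Lfl/fl (KO), where fl is the floxed allele. The labels do not spell out which promoter drives Lcre, and give neither age nor animal. The 9 groups of genotype and subset had 4 libraries each, except WT thymus with 3, or 35 in all.

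A dividing cell builds a bipolar spindle with kinesin motors, attaches chromosomes to it through kinetochores, and holds anaphase back by the spindle checkpoint until all are attached. Cdk1 with its cyclins, the Aurora kinases and Polo kinase drive these steps, condensins compact the chromosomes, and centralspindlin, a complex of Kif23 (a kinesin, also called MKLP1) and Racgap1 (a GTPase activating protein), bundles the midzone microtubules and recruits Ect2 to start cleavage. Most of these genes are transcribed in cycling cells, through FOXM1 and B-MYB with the MuvB complex, and are held silent in resting cells by the DREAM complex. In the thymus, T cell precursors divide before and during selection, whereas naive cells in the spleen are quiescent and memory cells divide slowly.

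Depth was 4809509 to 16879636 counts per library (median 10406516), and levels are given as CPM, counts scaled to the size of the library. A gene entered the test with a CPM of about 0.961 or more in at least 3 libraries, as did 10296 genes and 44 of the 48 members. Aurka, Birc5, Nusap1 and Hmmr were too low, at a mean of at most 0.723 CPM in any group. Of the 44, 13 passed only through thymus libraries, so that their decline from thymus to spleen was in part fixed by the filter. A gene was called at a p adjusted over all tested genes under 0.05, and a log2 fold change is given with its standard error. Dot1l transcripts were not lower in KO libraries (thymus 67.0 CPM in WT and 77.3 CPM in KO, naive 49.5 and 55.7, memory 45.4 and 45.8), so the count of the targeted gene did not check the labels. Counts of some abundant T cell transcripts were low for a reason not found (Cd8a at 9.98 CPM, against 997 CPM for Lck, in WT thymus). Differences in level between genes are therefore uncertain, also in sums over genes and in the share of Smc4 in them. Several members share exonic bases with a gene on the other strand (among them Kif4, Kif20a, Prc1, Plk1, Ccna2, Cdc20, Ube2c and Ncapg), and reads of the pair cannot be told apart where counting did not use strand. In these bulk libraries, fewer cycling cells and less RNA per cell cannot be told apart either.

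In WT mice, mitotic transcripts were abundant in the thymus and scarce in the spleen. The summed level of all 48 members was 1940 ± 321 CPM in thymus (SD, n = 3), 703 ± 27.1 in naive (n = 4) and 664 ± 65.8 in memory libraries (n = 4). In spleen most of it was Smc4. Without Racgap1, Kif23 and Smc4, the 3 members called lower in KO spleen cells and set apart for that after their values were seen, the sum of the other 45 was 1400 ± 290 CPM in thymus (SD, n = 3), 149 ± 27.1 in naive (n = 4) and 200 ± 66.2 in memory libraries (n = 4). Pooled over the libraries of a group, the median member of the 45 was 16.9-fold lower in naive and 9.17-fold lower in memory than in thymus libraries, with 2 of the 45 at a bound set by 3 counts. Of 44 tested members, 42 fell from thymus to naive in WT (32.2% of all tested genes were called, 15.3% higher and 16.9% lower), 42 in Het (39.5%, 19.8% higher and 19.7% lower) and 43 in KO (44.1%, 22.4% higher and 21.7% lower), and none rose. Without Racgap1, Kif23 and Smc4, all 41 tested members fell in each of these 3 comparisons. That count was in part fixed in advance. Of the 41, 13 had passed the filter only through thymus libraries, and the 3 were set apart with their values known.

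Top2a, the topoisomerase that untangles sister chromatids, was at 487, 770 and 697 CPM in the WT thymus libraries. In WT naive libraries it was at 16.7, 25.7, 48.7 and 32.7 CPM, and in WT memory libraries at 24.5, 29.3, 95.04 and 59.2 CPM. The thymus values lay above every spleen value, and naive and memory overlapped. Kif4, a chromosome-bound kinesin of the spindle midzone, was at 63.0, 81.4 and 71.0 CPM in WT thymus and between 0.650 and 3.41 CPM in WT naive libraries. Mki67, which coats mitotic chromosomes, was at 9.99, 16.3 and 11.8 CPM in WT thymus and at 0.217 to 1.61 CPM in WT naive libraries. Foxm1 showed the same order, with 7.72, 9.36 and 8.45 CPM in WT thymus and 0.433 to 1.78 CPM in WT naive libraries. The drop was shallower for Ndc80, the microtubule-binding kinetochore protein (17.6, 23.5 and 19.8 CPM in WT thymus; 5.21 to 8.01 in WT naive libraries), and for Incenp, the scaffold of the chromosomal passenger complex (9.19, 16.3 and 12.9 CPM; 4.73 to 6.91 CPM). Cdc20, which activates the anaphase-promoting complex, was at 13.2, 17.4 and 14.0 CPM in WT thymus and at 2.04 to 4.07 CPM in WT naive libraries. The plot of Top2a, Kif4, Ndc80 and Cdc20 by library shows these steps.

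**Figure D1:**
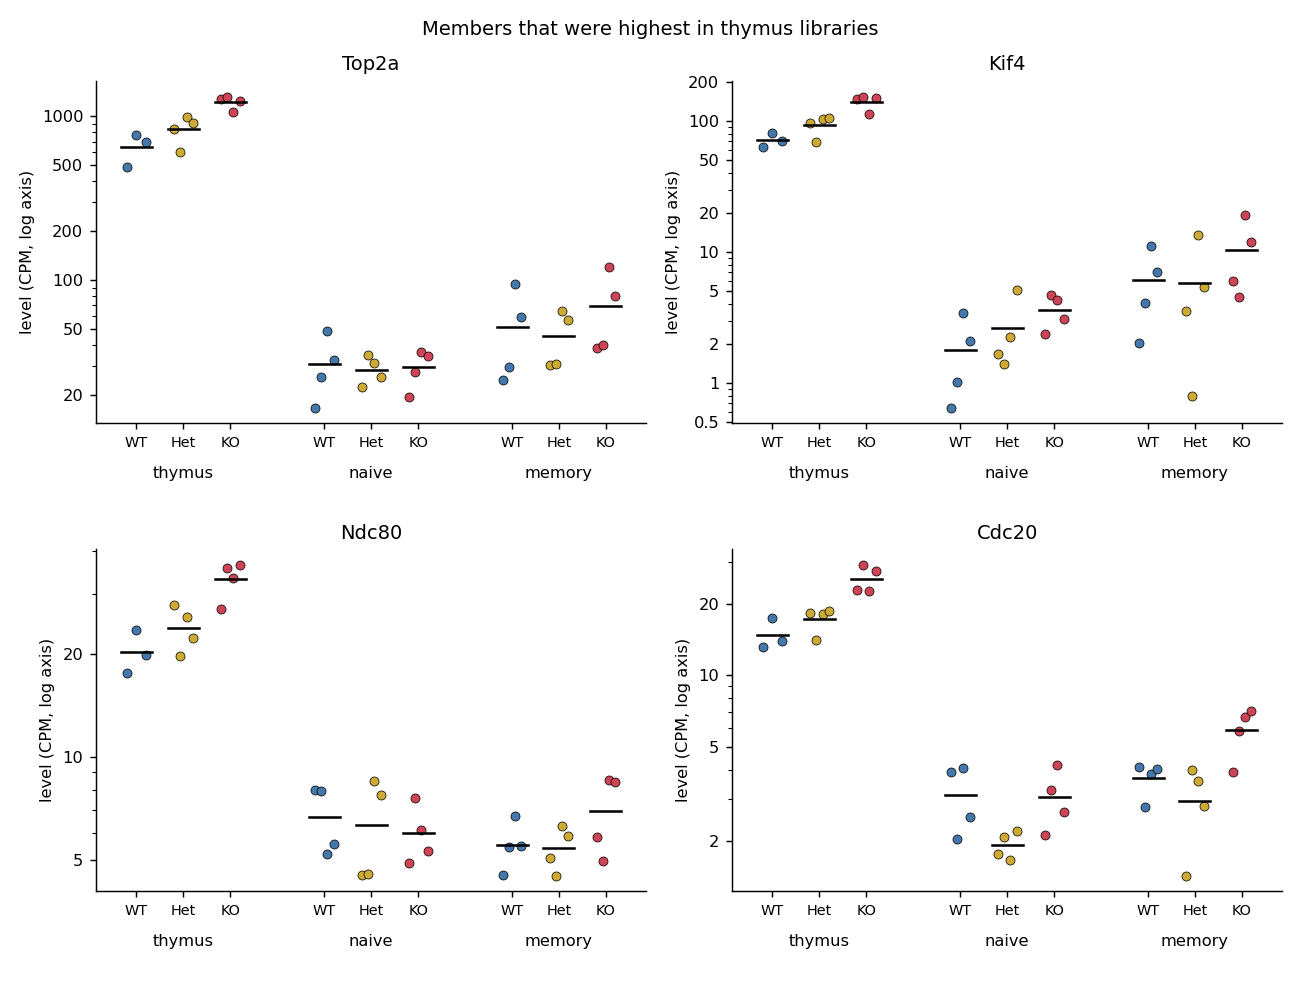
CPM (log axis) of Top2a, Kif4, Ndc80 and Cdc20 in each of the 35 libraries, by genotype within thymus, naive and memory cells. Points are libraries and bars are group means; for Top2a the 4 KO thymus libraries lie between 1062 and 1316 CPM, above the 3 WT libraries at 487 to 770.

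Racgap1 and Smc4 did not follow this pattern. Racgap1 was at 29.3, 35.6 and 27.6 CPM in WT thymus, 30.5, 29.1, 35.1 and 35.5 CPM in WT naive, and 52.4, 47.2, 49.1 and 48.04 CPM in WT memory libraries. Thymus and naive libraries overlapped (log2 fold change 0.08 ± 0.12, adjusted p = 0.656), and every memory library was higher than both. From naive to memory it rose in WT (0.59 ± 0.11, adjusted p = 4.95e-05), as did only 1 other member, the cyclin Ccnb2, of 44 (15.1% of all tested genes called, 7.68% higher and 7.38% lower). Smc4, an ATPase subunit shared by both condensins, was at 395.5 to 430.3 CPM in WT thymus, 455.7 to 519.8 in WT naive and 346.0 to 420.0 CPM in WT memory libraries, and its change from thymus to naive did not pass the test (0.22 ± 0.15, adjusted p = 0.291). Smc2, its partner in condensin, was at 92.3 ± 14.2 CPM in WT thymus (SD, n = 3) and 26.6 ± 1.65 CPM in WT naive libraries (n = 4). Kif23 fell with the others but among the least, at 71.9, 92.0 and 89.0 CPM in WT thymus and 42.0, 40.5, 32.6 and 37.8 CPM in WT naive libraries, a log2 fold change of -1.15 ± 0.20 (adjusted p = 2.76e-05) beside -1.04 ± 0.20 for the kinesin Kif20b (adjusted p = 5.15e-05) and -1.20 ± 0.21 for Incenp (adjusted p = 1.18e-05). Ect2, the partner that centralspindlin recruits, was at 17.0 ± 2.65 CPM in WT thymus (SD, n = 3) and 4.18 ± 0.837 CPM in WT naive libraries (n = 4).

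**Figure D2:**
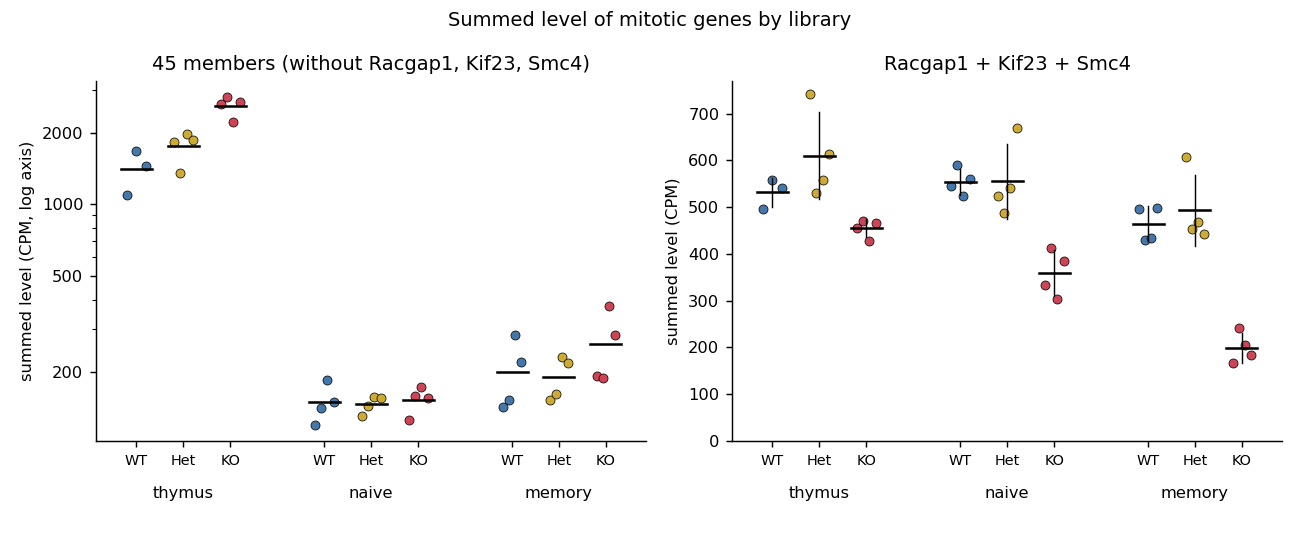
Summed CPM of 45 mitotic genes (left, log axis) and of Racgap1, Kif23 and Smc4 (right, linear axis from 0; bars ± SD) in each library, with group means as horizontal bars. On the left the 4 KO thymus libraries (2220 to 2810 CPM) lie above the WT ones (1100 to 1670 CPM); on the right, where Smc4 makes up most of the sum, KO memory libraries (167 to 241 CPM) lie below WT ones (430 to 498 CPM).

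Promoter sequences were compared because most members moved together between KO and WT thymus. Racgap1, Kif23 and Smc4 parted from them in spleen, and Kif23 and Smc4 did so in thymus as well. The promoter table of RefSeq (GRCm38.p6, 250 bases before to 50 after each start) held 41 of the 48 members, in 43 promoters. Smc4 was not among the 41, so its promoter was not examined. The motifs searched, on both strands, were the cell cycle homology region (CHR, TTTGAA or TTCGAA), bound by MuvB complexes, and CCAAT, bound by NF-Y. An E2F site was taken as TTCCCGC or TTCGCGC. The spellings TTGCCGC and, likewise, TTGGCGC were counted as well. The motifs were counted separately, also where matches of 2 of them overlap. Of the 41 members, 34 held a CHR (82.9%; 21.7% of all 27025 genes in the table), 31 a CCAAT (75.6%; 41.1%), 29 both (70.7%; 8.61%) and 9 an E2F site (22.0%; 10.9%). Such a match is a description of the letters and not a test of binding. Racgap1 and Kif23 held both a CHR and a CCAAT, as did the 6 other members printed here, which were called in at least 1 of the comparisons that follow. The 6 do not stand for all called members. Among others called there, Mad2l1 and Nuf2 held no match of any of the motifs, and Kif20b and Anln held a CHR without a CCAAT. Each stretch has 80 bases before and 20 from the start, 5′ to 3′ on the strand of the gene, with CHR and CCAAT matches of either orientation in capitals.
Racgap1 (chr15:99651637-99651736, minus strand): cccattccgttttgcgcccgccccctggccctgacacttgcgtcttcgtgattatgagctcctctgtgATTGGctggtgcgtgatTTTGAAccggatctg
Kif23 (chr9:61946780-61946879, minus strand): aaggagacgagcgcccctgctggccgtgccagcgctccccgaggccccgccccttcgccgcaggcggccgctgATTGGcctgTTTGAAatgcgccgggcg
Cenpf (chr1:189688067-189688166, minus strand): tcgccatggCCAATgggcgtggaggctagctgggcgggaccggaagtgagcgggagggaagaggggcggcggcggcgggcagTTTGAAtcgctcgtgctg
Ccnb2 (chr9:70421535-70421634, minus strand): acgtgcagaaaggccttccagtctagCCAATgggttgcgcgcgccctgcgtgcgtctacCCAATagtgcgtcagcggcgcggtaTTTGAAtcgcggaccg
Cdc20 (chr4:118437324-118437423, minus strand): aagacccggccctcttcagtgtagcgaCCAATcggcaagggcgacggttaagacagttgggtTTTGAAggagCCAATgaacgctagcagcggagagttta
Cdk1 (chr10:69352893-69352992, minus strand): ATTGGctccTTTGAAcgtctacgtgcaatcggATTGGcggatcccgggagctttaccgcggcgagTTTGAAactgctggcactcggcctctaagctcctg
Espl1 (chr15:102296213-102296312, plus strand): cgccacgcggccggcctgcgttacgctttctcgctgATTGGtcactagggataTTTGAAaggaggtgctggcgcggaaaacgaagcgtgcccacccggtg
Kif18b (chr11:102925105-102925204, minus strand): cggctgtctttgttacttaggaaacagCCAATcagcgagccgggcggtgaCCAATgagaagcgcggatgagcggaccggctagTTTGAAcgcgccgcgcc
The CHR of Racgap1 began at base 6 and that of Kif23 at base 3, counting the start as 1, and each followed a CCAAT match in reverse orientation (ATTGG) that began 12 and 7 bases before the start. In Kif18b, Cenpf and Ccnb2 the CHR also lay just after the start, at bases 4, 3 and 5. In Cdc20, Cdk1 and Espl1 the nearest CHR began 18, 15 and 27 bases before it.

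**Figure D3:**
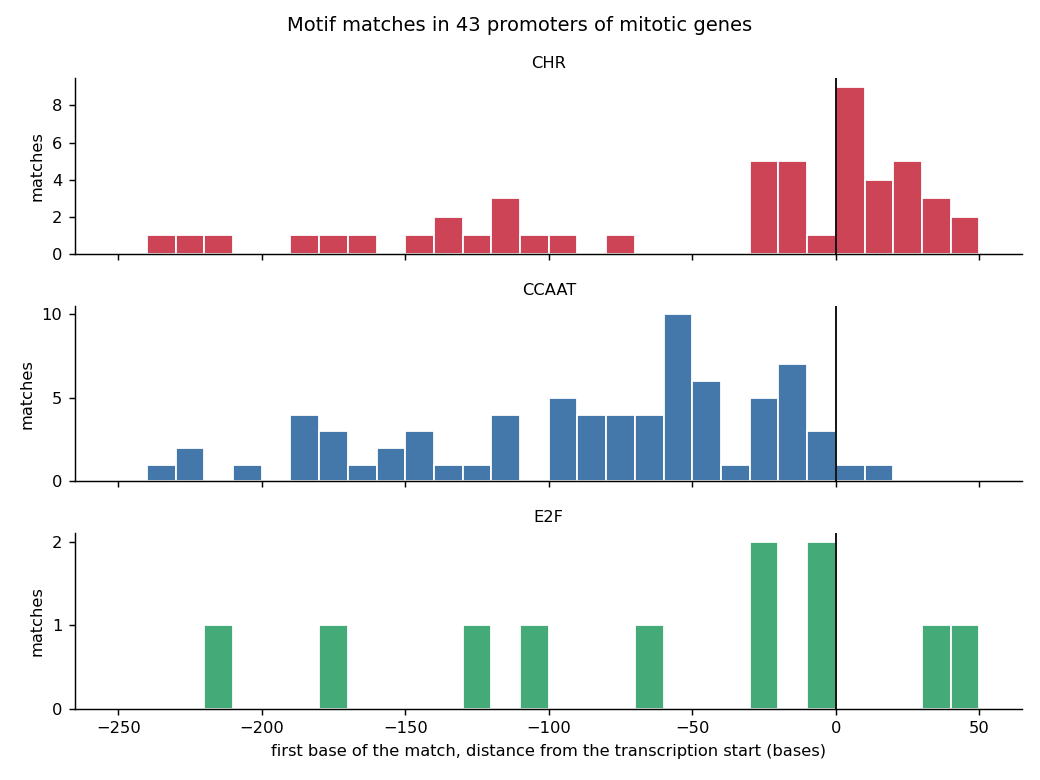
Number of CHR, CCAAT and E2F matches in the 43 promoters of 41 mitotic genes, in bins of 10 bases by distance of the first base of the match from the transcription start (vertical line; negative is upstream). Of 50 CHR matches, 30 begin within 30 bases of the start, and 72 of 74 CCAAT matches begin before it. The promoters of Ect2 overlap each other, as do those of Prc1, and a site they share is counted once per promoter.

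In thymus, the comparison of KO with WT asked what loss of Dot1l did to the mitotic transcripts of maturing CD8 cells, and they were higher as a group. Of 44 tested members, 32 rose and none fell, against 18.6% of all tested genes called, 11.9% higher and 6.77% lower. Of the 44, 41 had an unadjusted p under 0.05 (40 higher, 1 lower), and DESeq2 called 29 higher and 1 lower. The median log2 fold change of the members was 0.903, beside 0.0188 over all tested genes. All 41 tested members other than Racgap1, Kif23 and Smc4 had an estimate between 0.592 and 1.21, and in 39 of them every KO library was above every WT library. Leaving out WT replicate 1, the WT library lowest in these transcripts, left 15 called, and leaving out WT replicate 3 left 19. When the fit held WT and KO thymus libraries alone, 41 were called, 40 higher and 1 lower. For these alternative fits, the share of all tested genes called is not given here.

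Cdk1, the mitotic cyclin-dependent kinase, had the highest estimate; it was at 5.50 ± 0.816 CPM in KO and 2.27 ± 1.11 CPM in WT (SD, n = 4 and 3; 1.21 ± 0.39, adjusted p = 0.0255). Plk1, which acts at centrosomes, kinetochores and the midzone, rose from 23.6 ± 4.78 to 47.8 ± 10.2 CPM (1.01 ± 0.22, adjusted p = 0.000994). Aurkb, the kinase of the passenger complex, rose by 1.13 ± 0.36 on the log2 scale (adjusted p = 0.0225). Of the 7 genes of the group of Cdk1, cyclins and anaphase factors, 6 rose, among them the cyclins Ccna2 (1.10 ± 0.35, adjusted p = 0.0291) and Ccnb2 (1.04 ± 0.28, adjusted p = 0.00678), and only Ccnb1, with few counts, did not pass (0.66 ± 0.43, adjusted p = 0.333). Of the 4 tested kinases and passenger proteins, 3 rose, Cdca8 being the other (1.05 ± 0.45, adjusted p = 0.102). The calls of Cdk1 and Aurkb were lost without WT replicate 1 (adjusted p = 0.145 and 0.103) or 3 (0.112 and 0.103), that of Cdk1 also without KO replicate 4 (0.0741) and that of Aurkb without KO replicate 2 (0.0973).

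At the kinetochore and checkpoint, 7 of 9 members rose, among them Ttk, the checkpoint kinase also called Mps1 (1.19 ± 0.34, adjusted p = 0.00903), and Mad2l1, the inhibitor of Cdc20 (0.83 ± 0.18, adjusted p = 0.00055). Ndc80 was at 27.1, 35.6, 33.3 and 36.4 CPM in KO thymus, above each of its WT values (17.6 to 23.5 CPM). Cdc20, at 23.0, 29.3, 22.7 and 27.7 CPM in KO, was also above all WT libraries (0.78 ± 0.19, adjusted p = 0.00251). Of the spindle kinesins, 5 of 9 rose, with Kif20a, which carries passenger proteins to the midzone, at 0.99 ± 0.25 (adjusted p = 0.00331). The other 4 (Kif4, Kif11, Kif14 and Kif18b) had similar estimates, from 0.83 to 0.99, and adjusted p of 0.0536 to 0.0973. Kif4 was at 147.2, 153.8, 113.8 and 148.8 CPM in KO libraries, all above the WT range of 63.0 to 81.4.

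Both tested spindle assembly factors rose, Aspm, a spindle pole protein, by 0.89 ± 0.26 on the log2 scale (adjusted p = 0.011), and Tpx2, the activator of Aurora A, by 0.97 ± 0.33 (adjusted p = 0.0385). Tpx2 was at 51.5, 65.1, 45.03 and 63.7 CPM in KO and 22.8, 33.9 and 28.8 CPM in WT thymus, with no overlap. Foxm1, which activates many of these genes, was at 14.9, 18.9, 13.0 and 16.0 CPM in KO, above the WT range of 7.72 to 9.36 CPM (0.87 ± 0.22, adjusted p = 0.00268). Of the condensin and chromosome genes, 4 of 7 rose, led by Smc2 (0.71 ± 0.10, adjusted p = 7.37e-07). Top2a (0.90 ± 0.39, adjusted p = 0.113) and Mki67 (0.90 ± 0.36, adjusted p = 0.0883) had estimates of the same size with a wider error. Their groups did not overlap either (Mki67 at 26.3, 26.4, 18.7 and 25.1 CPM in KO), and with only the compared libraries both passed (adjusted p = 0.0163 and 0.00053).

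The cytokinesis genes were split. Ect2 rose by 1.00 ± 0.20 on the log2 scale (adjusted p = 0.000198), and the scaffold Anln (0.91 ± 0.27, adjusted p = 0.0128) and the midzone bundler Prc1 (0.83 ± 0.21, adjusted p = 0.00386) rose as well. Racgap1 rose less, with 43.7, 49.6, 39.4 and 43.1 CPM in KO thymus, each above the WT range of 27.6 to 35.6 CPM (0.50 ± 0.11, adjusted p = 0.00108). Kif23 was at 87.6, 102.5, 81.8 and 104.0 CPM in KO and overlapped with WT (0.15 ± 0.19, adjusted p = 0.669). Smc4 was the 1 member with an estimate below 0: it was at 323.3, 318.9, 306.3 and 319.2 CPM, under all WT libraries, with -0.39 ± 0.15 and an adjusted p = 0.0623. It passed when only the compared libraries were fitted (-0.42, adjusted p = 1.97e-05) and in KO against Het thymus (-0.61 ± 0.14, adjusted p = 0.00177).

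**Figure D4:**
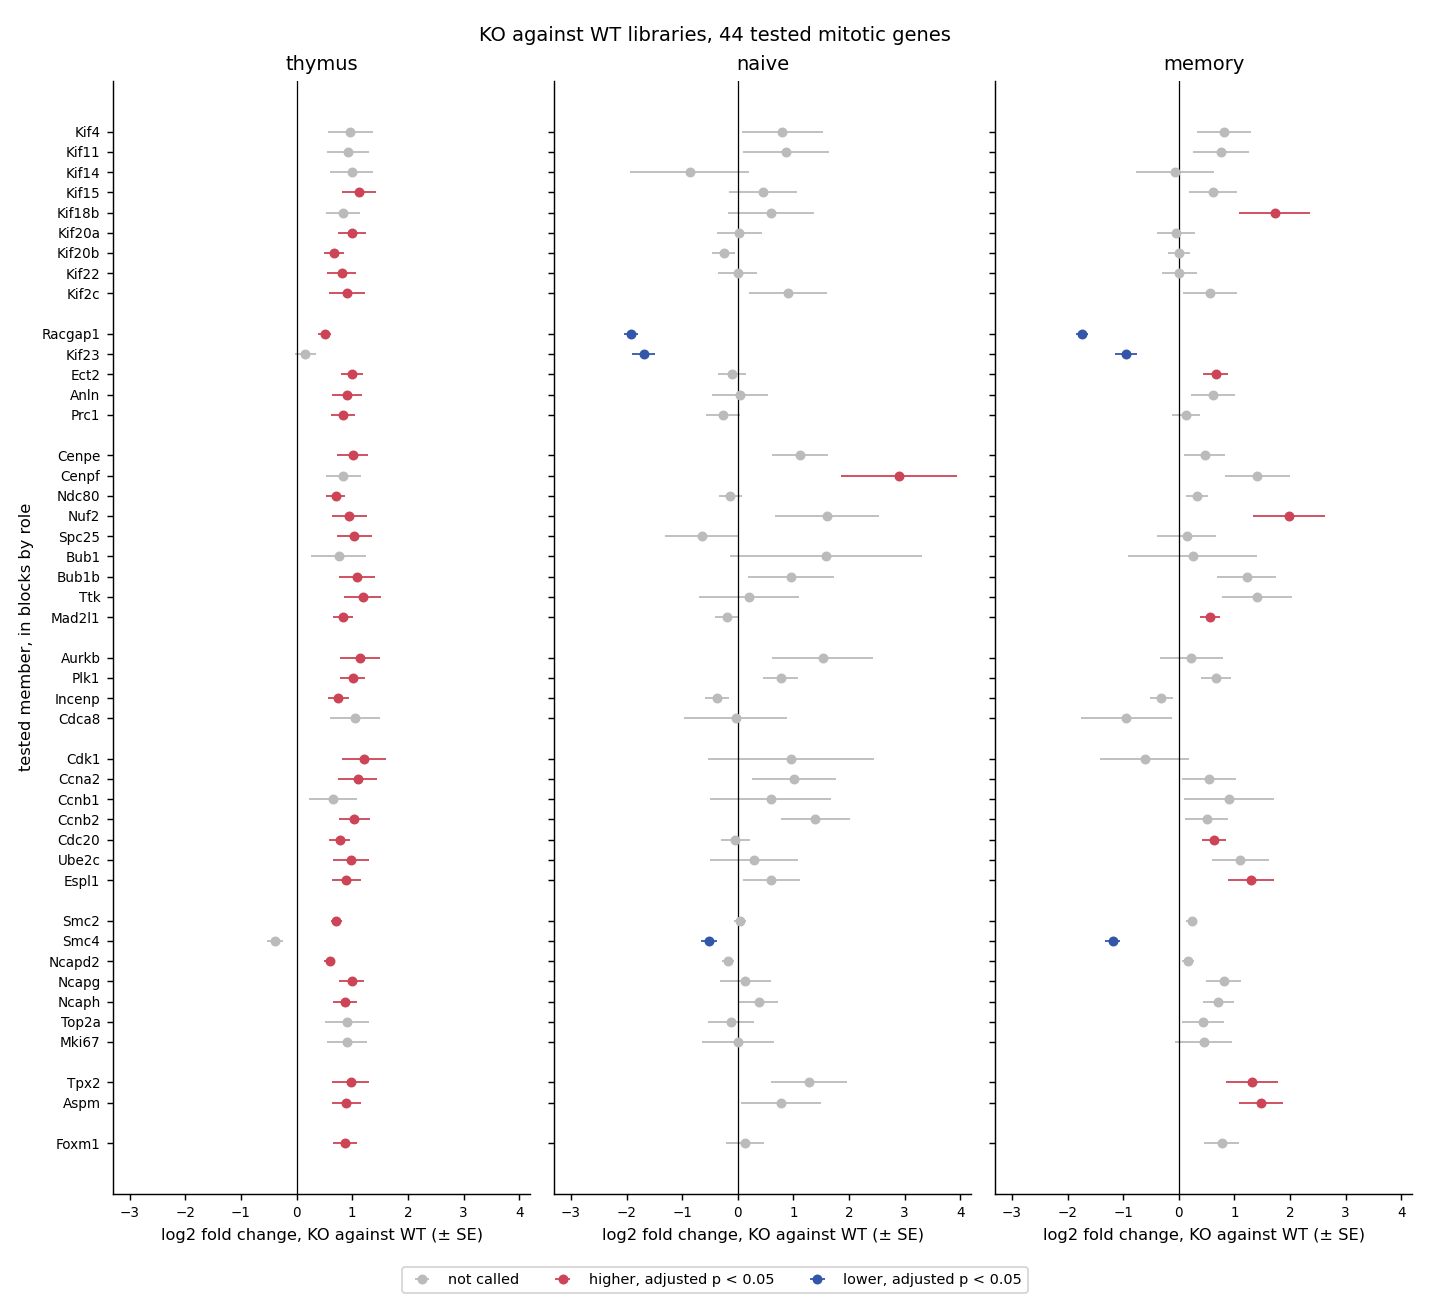
Log2 fold change of KO against WT libraries with its standard error for the 44 tested members, in blocks by role, in thymus, naive and memory cells. Red and blue mark members called higher and lower at an adjusted p under 0.05 and grey those not called: 32 red in thymus, 1 red and 3 blue in naive, 8 red and 3 blue in memory.

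Markers of immature thymocytes had a lower sum in KO thymus. The summed level of its 14 genes, 8 of them tested, was 285 to 319 CPM in KO thymus, 359 to 424 in Het and 398 to 445 CPM in WT. Rag1 (1.21 ± 0.41, adjusted p = 0.0369) and Hes1 (3.83 ± 0.77, adjusted p = 0.000245) were higher and Tox (-0.50 ± 0.09, adjusted p = 6.6e-05) and Sox4 (-1.28 ± 0.20, adjusted p = 1.33e-05) lower, while Cd4, Ptcra and Il2ra each had 6 counts or fewer over the KO thymus libraries. The sum of the 10 CD8 T cell markers was 1550 to 1630 CPM in KO and 1840 to 2100 CPM in WT thymus, with 3 of 10 lower. Of 13 B cell markers, 1 of 10 tested rose (summed level 15.6 to 26 CPM in KO and 7.85 to 17.3 in WT). Of 8 natural killer cell markers, 1 of 2 tested rose in KO in each subset, with summed levels of 40.8 to 58.5 against 9.12 to 14.0 CPM in thymus, 120 to 187 against 49.1 to 71.7 in naive and 286 to 366 against 174 to 200 CPM in memory cells. It was Eomes, which CD8 T cells also express. Of 8 markers of innate-like and gamma delta T cells, 1 of 2 tested, Zbtb16, rose in thymus (4.18 ± 0.56, adjusted p = 8.54e-07) and naive cells (6.49 ± 0.67, adjusted p = 2.99e-09), with summed levels of 4.27 to 13.5 against 1.21 to 2.40 CPM and 5.91 to 13.2 against 0.639 to 4.73 CPM. In memory cells neither passed. The part of such shifts in cell makeup in the mitotic result was not tested.

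In thymus, the mean summed level of the mitotic genes in Het lay between those of WT and KO, and no single gene differed from WT past the threshold. No member was called in Het against WT in thymus, naive or memory cells by edgeR or by DESeq2, where 0%, 0% and 0.00971% of all tested genes were called by edgeR. In these comparisons 4, 2 and 3 members had an unadjusted p under 0.05. In thymus, all 44 estimates were above 0, with a median of 0.279 beside 0.00285 over all genes. The 45-gene sum was 1750 ± 273 CPM (SD, n = 4) against 1400 ± 290 in WT (n = 3) and 2580 ± 253 in KO (n = 4). Its Het range (1350 to 1960 CPM) overlapped with that of WT (1100 to 1670 CPM, lowest in WT replicate 1). The 44 estimates share these libraries. KO against Het thymus, where 19.1% of all genes were called (11.9% higher and 7.28% lower), had 16 members higher, among them Cdk1 (1.14 ± 0.36, adjusted p = 0.0201), Plk1 (0.79 ± 0.20, adjusted p = 0.00413) and Foxm1 (0.80 ± 0.20, adjusted p = 0.00246), and Smc4 lower. With only the compared libraries fitted, that count was 32 higher and 1 lower, and it was 7 in all without Het replicate 2, 9 without KO replicate 2 and 10 without KO replicate 4. The share of all tested genes called in these fits is not given here. KO against WT and KO against Het share the KO libraries.

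In naive spleen cells the pattern was another one: most mitotic genes were low in WT and KO alike and not called, while Racgap1, Kif23 and Smc4 were lower in KO. Of 44 members, 3 fell and 1 rose, against 18.2% of all tested genes called, 11.1% higher and 7.11% lower. The median log2 fold change of the members was 0.166, beside 0.00305 over all tested genes. At an unadjusted p under 0.05 there were 4 members higher and 3 lower. Racgap1 was at 8.02, 8.54, 9.35 and 8.78 CPM in KO naive libraries and at 29.1 to 35.5 CPM in WT. The ranges are far apart (8.67 ± 0.553 and 32.6 ± 3.22 CPM, SD, n = 4 each; -1.92 ± 0.12, adjusted p = 4.62e-16). Kif23, its centralspindlin partner, was at 10.47, 17.4, 8.49 and 11.1 CPM in KO and 32.6 to 42.0 CPM in WT, again without overlap (-1.69 ± 0.21, adjusted p = 3.58e-07). Smc4 was at 314.1, 387.3, 286.6 and 363.9 CPM in KO, each below the WT range of 455.7 to 519.8 CPM (-0.52 ± 0.14, adjusted p = 0.00748).

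No other cytokinesis or condensin gene was called lower with them, except the condensin gene Ncapd2 with libraries centred on their mean log level (-0.28, adjusted p = 0.0388; -0.17 and 0.322 otherwise). Ect2 was at 3.86 ± 0.644 CPM in KO and 4.18 ± 0.837 in WT naive libraries (SD, n = 4 each; adjusted p = 0.837), Prc1 at 2.30 ± 0.341 and 2.60 ± 0.818 CPM (adjusted p = 0.639), and Smc2 at 27.5 ± 1.36 and 26.6 ± 1.65 CPM (adjusted p = 0.847). The 45-gene sum was 126 to 173 CPM in KO and 120 to 185 CPM in WT naive libraries, while the sum of all 48 was 458 to 571 CPM in KO, below the WT range of 665 to 730 CPM. The 1 member that rose was Cenpf, a kinetochore protein, on 13 counts in KO and 1 in WT over 4 libraries each, with a counting interval of the ratio (exact, at 95% confidence) of 1.5 to 425 (2.90 ± 1.04, adjusted p = 0.0459). Cenpf lost its call without robust estimates (adjusted p = 0.0521), with only the compared libraries (adjusted p = 0.0966) and without any of WT replicates 1, 2 and 3 or KO replicates 1, 2 and 4. Het naive libraries lay with WT for the 3 genes (Racgap1 at 32.4, 34.4, 39.0 and 34.1 CPM), and KO against Het, with 16.9% of all genes called (10.5% higher and 6.5% lower), called the same 3 lower (Racgap1 -2.01 ± 0.12, Kif23 -1.59 ± 0.20, Smc4 -0.52 ± 0.14; adjusted p = 5.92e-17, 8.49e-07 and 0.00746). It also called Cenpe and Aurkb higher, both on few counts (1.07 and 0.288 CPM in KO). Here the members had a median of 0.511 beside 0.00193 over all genes, with 7 higher and 3 lower at an unadjusted p under 0.05.

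**Figure D5:**
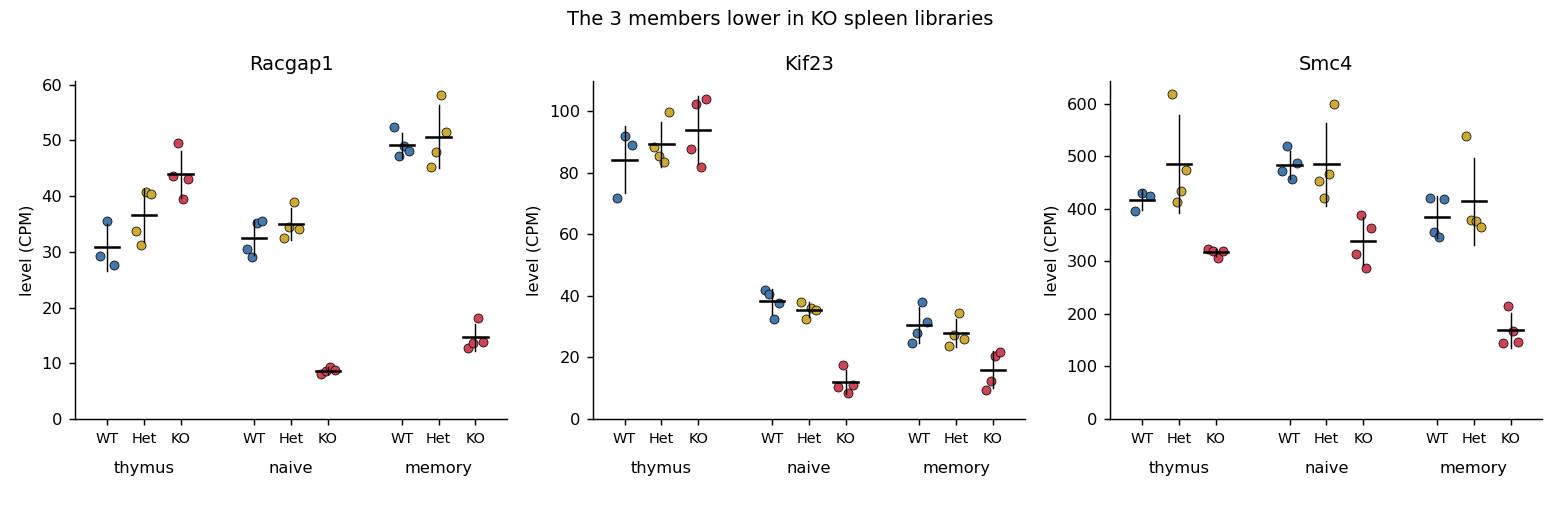
CPM of Racgap1, Kif23 and Smc4 in each library by genotype and subset, with the group mean (horizontal bar) ± SD (vertical line) on axes that start at 0. In naive and memory cells the KO points lie below all WT and Het points for each gene, while in thymus Racgap1 is higher in KO than in WT and Kif23 overlaps.

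In memory cells the same 3 members were lower in KO, and others were higher. Racgap1 was at 12.8, 13.7, 18.2 and 13.8 CPM in KO, far under the WT range of 47.2 to 52.4 (-1.74 ± 0.11, adjusted p = 3.34e-16). Smc4 was at 144.4, 215.3, 167.1 and 147.2 CPM in KO and 346.0 to 420.0 CPM in WT, its largest difference of the 3 subsets (-1.19 ± 0.14, adjusted p = 1.33e-07). Kif23 was at 9.40, 12.3, 20.4 and 21.9 CPM in KO and 24.6, 27.9, 38.0 and 31.5 CPM in WT, close but without overlap (-0.95 ± 0.20, adjusted p = 0.000511), and did not pass with only the compared libraries fitted (adjusted p = 0.0626). Het memory libraries stood with WT (Racgap1 45.3 to 58.2 CPM), and KO against Het (20.2% of all genes called, 11.6% higher and 8.59% lower) called the 3 genes lower by 1.79, 0.83 and 1.30 on the log2 scale for Racgap1, Kif23 and Smc4. It also called 8 members higher (Ect2, Cenpe, Aurkb, Ccnb2, Cdc20, Ncaph, Aspm and Foxm1), or 3 without KO replicate 3, and the median was 0.724. The share of all tested genes called without that replicate is not given here.

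In all, 3 members fell and 8 rose in KO against WT memory cells, against 22.2% of all tested genes called, 12.8% higher and 9.32% lower, and the median was 0.551 beside 0.00716 over all genes. The share of members called higher (18.2%) was near that of all genes (12.8%). The 8 were Kif18b, Ect2, Nuf2, Mad2l1, Cdc20, Espl1, Tpx2 and Aspm, and for each the KO and WT libraries overlapped. Aspm had the lowest adjusted p (1.97 ± 1.26 CPM in KO and 0.722 ± 0.410 CPM in WT, SD, n = 4 each; 1.47 ± 0.40, adjusted p = 0.00517). Nuf2, the partner of Ndc80 at the kinetochore, had the largest estimate (1.98 ± 0.65, adjusted p = 0.0227), followed by the kinesin Kif18b (1.73 ± 0.64, adjusted p = 0.0457), both under 1 CPM. Espl1, the separase that cuts cohesin, was at 1.90 ± 0.700 and 0.782 ± 0.586 CPM (SD, n = 4 each; 1.31 ± 0.42, adjusted p = 0.0194). Cdc20 was at 3.93, 5.81, 6.70 and 7.05 CPM in KO and 2.77 to 4.12 CPM in WT libraries.

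The 8 higher calls changed with single libraries left out. In every genotype, memory replicates 3 and 4 held more mitotic transcripts than 1 and 2: the 45-gene sum was 285 and 219 CPM against 143 and 152 in WT, 231 and 216 against 152 and 161 in Het, and 375 and 285 against 191 and 189 CPM in KO. The mean of that sum was higher in KO (260 ± 88.6 CPM) than in WT (200 ± 66.2 CPM, SD, n = 4 each), whereas the sum of all 48 was lower, at 358 to 580 CPM in KO and 582 to 718 CPM in WT. The labels name no batch for the replicate numbers. Erythroid marker sums ran the other way (4.03 and 12.4 CPM in KO replicates 3 and 4, 51.4 and 37.0 in 1 and 2), and B cell marker sums were higher in WT and Het replicates 3 and 4 (67.7 to 172 CPM) than in 1 and 2 (at most 27.5 CPM), which was less clear in KO (76.8 and 59.5 against 15.4 and 47.4 CPM). Their part in the result was not tested. Without KO replicate 3, none of the 8 was called and the 3 lower ones remained. That replicate was also the only female library of KO memory cells (1 of 4, against 2 of 4 in WT), with sex read from Xist and Y-linked genes. Leaving it out cannot separate sex from other traits of that library. The count of called members was 5 to 6 without WT replicate 1, WT replicate 2 or KO replicate 4, and 17 without KO replicate 1. For the fits that leave out a library, the share of all tested genes called is not given here. With libraries centred on their mean log level instead, where the median over all genes was -0.0861 for thymus, -0.11 for naive and -0.105 for memory cells, memory had 3 members higher and 3 lower, and the split of all called genes went from 1323 higher and 960 lower to 1019 and 1812. That split went from 1222 and 697 to 886 and 1342 in thymus and from 1147 and 732 to 886 and 1612 in naive cells, while the members stood at 29 higher and 1 lower (Smc4) in thymus and at 1 higher and 4 lower in naive cells.

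From naive to memory cells, few members were called in WT or Het and more in KO. The median log2 fold change of the members was above 0 in each genotype. It was 0.555 in WT, 0.655 in Het and 0.885 in KO, beside 0.002, 0.00182 and 0.00923 over all genes. Het, with 16.9% of all genes called (8.31% higher and 8.57% lower), had 3 higher (Racgap1, Mki67 and Tpx2), and KO, with 17.3% (8.69% higher and 8.61% lower), had 11 higher and 1 lower. In KO the condensin genes Smc2 (27.5 ± 1.36 to 37.9 ± 1.94 CPM, SD, n = 4 each; adjusted p = 0.00053), Ncapd2 (adjusted p = 0.00281) and Ncapg (adjusted p = 0.000825) rose, and Smc4 fell by 1.00 ± 0.14 on the log2 scale (adjusted p = 3.95e-06). Racgap1 rose from its lower base (0.76 ± 0.12, adjusted p = 9.93e-06). Whether the KO effect differed between memory and naive cells was tested by an interaction term. DESeq2 called 1 member, and its share of all genes called is not given here. With edgeR no member was called, where 1.79% of all genes were (0.67% higher and 1.12% lower), and 6 members had an unadjusted p under 0.05. In that edgeR fit Smc4 came nearest among the 3 genes (-0.68 ± 0.20, adjusted p = 0.0812).

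The KO effect did differ between thymus and naive cells. The interaction term called 8 of 44 members, all with a lower effect in naive cells, where 6.34% of all tested genes were called (3.01% higher and 3.33% lower). Racgap1 had the lowest value (-2.42 ± 0.17, adjusted p = 7.99e-14), higher in KO thymus and lower in KO naive cells, and Kif23 was next (-1.84 ± 0.28, adjusted p = 0.000119). The other 6 were Incenp, Ect2, Mad2l1, Kif20b, Ncapd2 and Smc2, which rose in KO thymus and did not pass in KO naive cells. Incenp was at 23.3, 26.8, 17.2 and 20.3 CPM in KO and 9.19 to 16.3 CPM in WT thymus, but at 3.12 to 5.70 CPM in KO and 4.73 to 6.91 CPM in WT naive libraries. The effect on Smc4 was not called different between thymus and naive cells (-0.12 ± 0.20, adjusted p = 0.82).

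Over the 35 libraries, the member whose log2 CPM was most like that of Racgap1 was Kif23 (Pearson r = 0.657), then Smc4 (0.477), and the other tested members were at 0.121 to 0.427. These values describe libraries that share groups, and carry no p. Outside the list, the 5 genes most like it were Slc35f2 (0.838), Faf1 (0.824), Trim59 (0.817), Coro1c (0.812) and Gatad2a (0.807). Each had lower group means in KO naive and memory cells than in WT, for example Trim59 at 2.24 against 7.47 CPM and 1.39 against 7.94 CPM, and Faf1 at 214 against 270 CPM and 228 against 270 CPM.

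Trim59 lies next to Smc4, and the neighbours of the 3 genes were looked at after their values were seen. In GENCODE M21 (GRCm38), Smc4 spans chr3:69004738-69034623 on the plus strand, with its start 168 bases from the start of Ift80 and its end 665 bases from the end of Trim59, both on the minus strand. In KO against WT, Trim59, a ubiquitin ligase of the tripartite motif family, was lower by 1.71 ± 0.18 (adjusted p = 8.8e-10) in naive and 2.49 ± 0.18 in memory cells (adjusted p = 2.31e-14) on the log2 scale, and did not pass in thymus (-0.28 ± 0.18, adjusted p = 0.319). Ift80, an intraflagellar transport gene, fell by 0.68 ± 0.10, 0.36 ± 0.09 and 0.62 ± 0.09 in thymus, naive and memory cells (adjusted p = 8.47e-07, 0.0026 and 9.05e-07). Kpna4, the next tested gene at 32526 bases, was not called in any of them. Racgap1 (chr15:99620496-99651656, minus strand) had its nearest tested neighbour, Smarcd1, at 50473 bases, and it was not called. Kif23 (chr9:61915905-61946774, minus strand) had Rplp1 at 1363 bases, which fell in naive cells (-0.45 ± 0.13, adjusted p = 0.011) and not in the other subsets.

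A longer list of 115 other mitotic and cell cycle genes, 83 of them tested, gave the setting. In KO against WT it had 30 higher and 2 lower in thymus (median 0.371), 4 and 4 in naive (0.0425) and 14 and 4 in memory cells (0.151). These were 38.6%, 9.64% and 21.7% of its tested genes, beside 18.6%, 18.2% and 22.2% of all tested genes. Cdc25b, a phosphatase that activates Cdk1, rose in all 3 subsets (1.14 ± 0.15, 1.02 ± 0.14 and 0.71 ± 0.13; adjusted p = 2.46e-07, 2.76e-07 and 6.56e-05). The kinetochore gene Kntc1 rose in naive (1.76 ± 0.45, adjusted p = 0.0032) and memory cells (1.59 ± 0.29, adjusted p = 3.84e-05), and Plk4, which starts centriole duplication, in thymus (0.83 ± 0.13, adjusted p = 5.5e-06). By adjusted p, the first genes called lower were Cdkn1b, an inhibitor of cyclin-dependent kinases, in thymus (30.7 against 53.5 CPM; -0.78 ± 0.10, adjusted p = 2e-07) with the pocket protein gene Rbl2 (-0.27 ± 0.09, adjusted p = 0.0225), and Cdkn2c, another such inhibitor, in naive (-1.44 ± 0.36, adjusted p = 0.00309) and memory cells (-1.97 ± 0.30, adjusted p = 3.77e-06). Inhibitors did not move one way: the pocket protein gene Rbl1 rose in thymus, naive and memory cells (0.45 ± 0.11, 0.30 ± 0.10 and 0.49 ± 0.10; adjusted p = 0.00159, 0.0278 and 0.000157). Wee1, a kinase that inhibits Cdk1, rose in thymus (1.01 ± 0.24, adjusted p = 0.00186) and memory cells (0.75 ± 0.27, adjusted p = 0.042). The phosphatase gene Cdc25a fell in naive (-0.53 ± 0.16, adjusted p = 0.0135) and the transcription factor gene E2f2 in memory cells (-1.59 ± 0.28, adjusted p = 8.31e-05). E2F genes did not move one way in memory cells, as E2f1 (1.33 ± 0.31, adjusted p = 0.00154) and E2f8 (2.56 ± 0.66, adjusted p = 0.00303) rose.

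A list of 40 DNA replication genes, 35 of them tested, was higher in KO thymus and memory cells. In KO against WT, 28 rose in thymus (median 0.724), 2 rose and 1 fell in naive (0.0837), and 20 rose in memory cells (0.541). These were 80%, 8.57% and 57.1% of those tested. Mcm2, a subunit of the replicative helicase, rose in each subset: 304 against 184 CPM in thymus, 70.0 against 58.1 in naive and 125 against 72.7 CPM in memory cells (0.72 ± 0.07, 0.27 ± 0.07 and 0.78 ± 0.07; adjusted p = 8.29e-10, 0.0057 and 5.98e-12).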

How the data were processed

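RNA was measured in 35 libraries of sorted CD8 T cells in 9 groups. Per the labels' protocols, strand-specific mRNA libraries were read as 65-base single reads. Per the submitters' processing notes, TopHat2 2.1.0, TopHat and HTSeq 0.9.1 were used; the annotation release and strand setting are not given in the sources used here. The authors deposited raw counts per Ensembl gene, from which all values here were computed. Symbols and positions came from GENCODE M21 (GRCm38; 52403 of 52636 genes matched), and promoters from RefSeq (GRCm38.p6).

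In R 4.3.3, edgeR 4.0.16 kept 10296 genes (filterByExpr over 9 groups), scaled libraries by TMM (factors 0.927 to 1.07) and fitted a robust quasi-likelihood model of group means with 26 residual degrees of freedom. In each of 17 contrasts, two-sided p values received a Benjamini-Hochberg adjustment across the 10296 genes. CPM and fold changes follow from this fit, and a standard error is the log2 fold change divided by the root of its F statistic. On simulated data, the KO against WT test recovered 74% (thymus), 64% (naive) and 73% (memory) of genes changed by 1 on the log2 scale. Each simulated gene had its mean level over all 35 libraries, with no difference between subsets. These shares therefore do not describe members that are low in spleen. Whether replicates are separate animals is not in the labels; p values therefore reflect only how these samples vary, in part perhaps technically. Counting intervals cover counting error only. Depth limits genes under about 1 CPM.

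The 48 members, the other lists and the tests were chosen with earlier results of these data known. Named genes are Racgap1, Mki67, Foxm1 and the highest member of each role with values by library; in each KO against WT comparison the 3 highest and 3 lowest called members and the lowest adjusted p per role; of the other mitotic genes the 2 lowest adjusted p in each direction; and the 5 genes most correlated with Racgap1. Other named genes of these lists, Mcm2 among them, and the neighbouring genes were picked with their values in view. The settings tried besides were RLE scaling, mean log centring, no filter, a stricter filter, non-robust estimates, only the compared libraries, DESeq2 1.42.0, a replicate block, sex (read from Xist and Y-linked genes) as a covariate and leaving out each library. Replicate numbers recur in all groups. Every pair of equally numbered libraries deviated together (r over 0.1) in KO against Het naive (0.144 to 0.262) and WT memory against naive libraries (0.206 to 0.310), and in no other comparison. Each Het and KO group held 1 female library of 4, WT naive and memory 2 of 4 and WT thymus 1 of 3. In Het and KO, equally numbered libraries of all subsets had the same sex. In WT only those of naive and memory cells did. These are hints from the data and not the labels, and the main fit did not pair libraries.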

Additional observations from a re-analysis of the deposited data

Results flagged for a closer look

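For 8 members the KO against WT effect differed between naive and thymus cells by the interaction term of edgeR. The differences (naive minus thymus, log2) were -2.42 for Racgap1 (adjusted p = 7.99e-14), -1.84 for Kif23 (0.000119), -1.12 for Incenp (0.0117), -1.10 for Ect2 (0.0265), -1.03 for Mad2l1 (0.0158), -0.925 for Kif20b (0.0296), -0.762 for Ncapd2 (0.000846) and -0.671 for Smc2 (0.00228). For Racgap1 the effect changed sign, with every KO library above WT in thymus and below WT in naive cells.

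In 104 groups of 4 libraries examined for a value far from the other 3 (by the gap over the range, with the 95% critical value of Dixon), 5 stood out, about as many as chance gives at 1 in 20. Smc4 was at 538 CPM in Het memory replicate 1, which also set the sum of Racgap1, Kif23 and Smc4 there, at 607 CPM. Kif4 (114 CPM) and Mki67 (18.7 CPM) were low in KO thymus replicate 3, and Cdc20 (14.1 CPM) was low in Het thymus replicate 2.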

How the results depend on the processing

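Of 379 values of named members under alternatives, all 379 kept their direction and 343 also their side of the threshold; Racgap1 and Smc4 remained lower in KO spleen cells under every alternative. Of 153 counts of called members outside the fits that leave out a library, 146 stayed within 1.5 times. The others were KO against WT memory with mean log centring (6), KO against Het thymus with only the compared libraries (33), memory against naive in Het without a filter (1) or by DESeq2 (5) and in WT by DESeq2 (4), and the memory-minus-naive interaction without robust estimates (1) or by DESeq2 (1). Leaving out 1 library gave 15 to 32 called members in KO against WT thymus, 3 to 5 in naive and 3 to 17 in memory cells; 7 to 18 in KO against Het thymus and 6 to 15 in memory cells; 1 to 5 and 1 to 6 in memory against naive for WT and Het; and 0 to 1 for the memory-minus-naive interaction. The cause was not tested beyond the fewer libraries. For the fits that leave out a library, the share of all tested genes called is not given here. With the replicate number as a block, KO against WT had 33 called members for thymus, 4 for naive and 12 for memory libraries, and no count moved by over 1.5 times. Depth limits members with few counts in spleen.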
